A study of Mus musculus with 6 samples.

Results

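The forkhead transcription factors of the mouse were compared between 2 mammary carcinoma cell lines, 4T1 and 4TO7. Members were the protein-coding genes of the deposited table whose symbol is Fox, a letter from a to s and a number, with Foxa1 left out. This gave 43 of the 47729 genes listed, 21979 of which are protein-coding. Both lines are labelled as BALB/c and as derived from a spontaneous mouse tumour. Both were grown untreated in DMEM with 10% FBS (fetal bovine serum), and total RNA was sequenced from 3 libraries of each line. The labels name no transgene, deletion, batch or date, and do not say whether the 3 libraries of a line came from independent cultures, so p-values measure only how these libraries scatter, a scatter that may be technical. As background, 4T1 and 4TO7 are sister lines from 1 parental tumour that are used as a pair in metastasis research, and each is a single line, so a difference between them cannot be assigned to any trait that separates them.

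Forkhead proteins bind DNA through a winged-helix domain, in which 1 helix lies in the major groove and reads the base sequence. FOXA, FOXC, FOXD, FOXF, FOXL and FOXQ proteins pattern tissues in the embryo, and several are studied in epithelial to mesenchymal transition. FOXO proteins are kept out of the nucleus by AKT and switch on genes of cell-cycle arrest, apoptosis and stress defence, FOXM1 drives genes of mitosis, FOXJ1 drives motile cilia, and FOXK and FOXP proteins act mainly as repressors.

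The stretch of each transcript that encodes this DNA-reading helix is shown for the 8 members that differed between the lines, because it is the part of these genes that defines the family. Each is 45 bases from the sense strand of the GENCODE M21 transcript, 5′ to 3′, and capitals mark bases that differ from Foxc1.
Foxc1: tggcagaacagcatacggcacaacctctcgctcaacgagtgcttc
Foxc2: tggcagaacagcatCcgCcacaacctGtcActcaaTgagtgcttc
Foxd2: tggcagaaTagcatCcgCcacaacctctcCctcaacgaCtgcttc
Foxf1: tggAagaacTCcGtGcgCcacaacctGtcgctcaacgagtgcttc
Foxq1: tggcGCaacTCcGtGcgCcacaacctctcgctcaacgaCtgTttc
Foxj1: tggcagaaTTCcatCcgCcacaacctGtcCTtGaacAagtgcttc
Foxk2: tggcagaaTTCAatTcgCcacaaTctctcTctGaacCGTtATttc
Foxo4: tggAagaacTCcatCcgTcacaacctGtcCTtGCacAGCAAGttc
Foxc2 and Foxd2 each differed from Foxc1 at 5 of the 45 bases, Foxf1 at 7, Foxq1 at 9, Foxj1 at 10, Foxk2 at 14 and Foxo4 at 16. These are differences of bases, not of residues. The 5 in Foxc2 leave every codon with the same meaning, so the Foxc1 and Foxc2 stretches encode the same 15 residues. The stretch was located by a fixed residue pattern (W, any, N, any, any, RHNL), which matched in 39 of the 43 members. Foxa2, Foxa3, Foxh1 and Foxr1 did not match this spelling, which does not show that they lack the helix.

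Values are normalised read counts, that is, reads per gene divided by 1 size factor per library, and library depth ranged from 33605566 to 39072639 reads. Replicates of a line correlated at 0.978 or more across genes on the log2 scale, and libraries of different lines at 0.848 or less. Replicate 2 of 4TO7 stood apart from the other 4TO7 libraries: 14 of the 19 tested forkhead genes were lower in it, with a median log2 deviation of -0.39 against -0.01 over all genes tested. Where leaving it out changed a call or a count by over 1.5 times, the value without it is given. The summed level of 5 epithelial markers was 178365 to 202850 in 4T1 and 25835 to 42468 in 4TO7, with Epcam at 15.7 to 33.8 in 4TO7, and the part of this difference in the forkhead results was not tested. Of 5 mesenchymal markers, 1 (Thy1) had 0 reads in every library, and their sum was also lower in 4TO7, 115711 to 152905 against 208606 to 231792 in 4T1. The markers did not move together. Fn1 was 2.94-fold higher in 4T1 (adjusted p = 0.00269) and Vim did not pass (0.198). Pdgfrb was higher in 4TO7 at a low level (6.52 ± 5.24 against 25.1 ± 13.8, adjusted p = 0.032), and Col1a1 had 31 reads in 4T1 and 13 in 4TO7. Of 5 leukocyte markers, 3 had 0 reads in every library and no marker exceeded 5 reads, and none of 5 endothelial markers exceeded 9 reads in a library.

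Of the 43 forkhead genes, 19 passed the low-value filter (at least 10 normalised counts in at least 3 of the 6 libraries), 9 had between 2 and 62 reads over all libraries and 15 had 0 reads in every library. The lines were compared with limma on log2(value + 1), with Benjamini-Hochberg adjustment over all 14276 genes tested and a threshold of 0.05, and log2 differences are 4T1 minus 4TO7. Foxc2, Foxj1, Foxk2 and Foxf1 were higher in 4T1, and Foxq1, Foxc1, Foxd2 and Foxo4 were higher in 4TO7. These 8 of 19 stand beside a background of 49.0% of all genes tested, 25.1% higher in 4T1 and 23.9% higher in 4TO7. The share of forkhead genes called was thus no larger than that of genes at large. These percentages are those of the main fit, and all-gene counts under the alternatives are given at the end. The libraries of the lines did not overlap for 9 of the 19, the 8 called and Foxj3, against 58.4% of all genes tested. The median log2 difference was -0.23 over the 19 and 0.03 over all genes tested, and the median absolute difference 0.45 against 0.57. Foxc2 passed the filter through 4T1 alone and therefore had to differ. In bulk RNA, fewer cells of a type and less RNA per cell cannot be told apart.

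**Figure D1:**
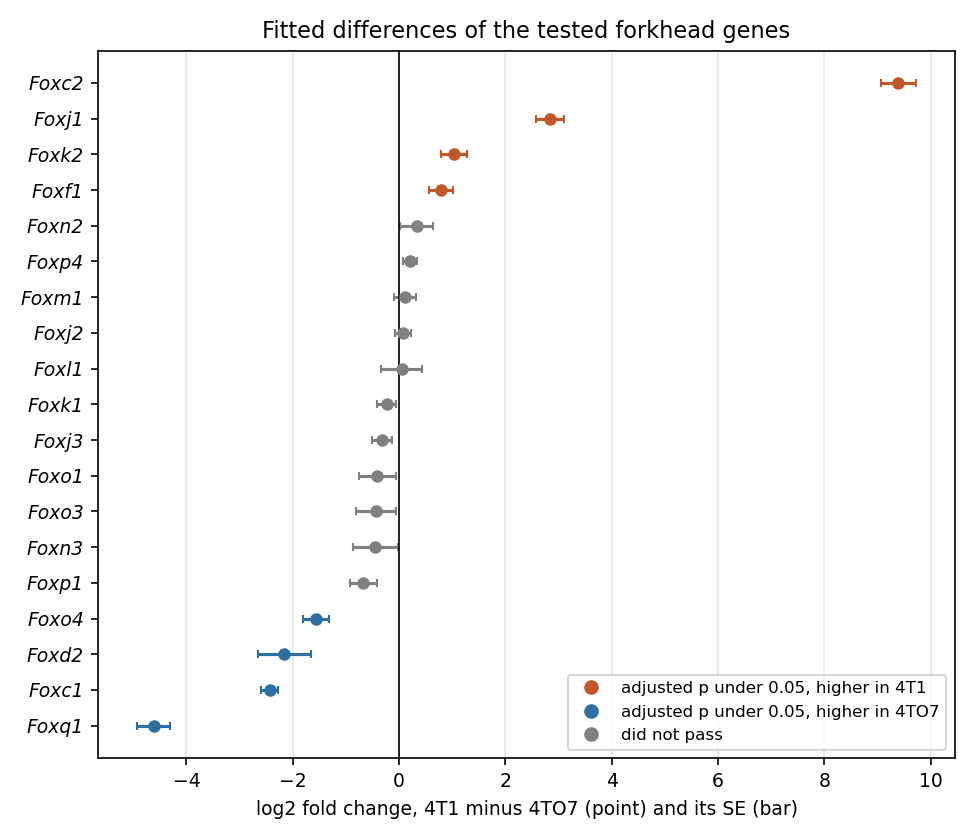
Fitted log2 difference (4T1 minus 4TO7, point) with its standard error (bar) for the 19 tested forkhead genes, ordered by size, with 3 libraries per line. Foxc2 lies farthest to the right at 9.39 and Foxq1 farthest to the left at -4.61, and the 11 grey genes that did not pass lie between -0.67 and 0.33.

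The FOXC pair gave the widest contrast. Foxc1, a regulator of mesoderm, eye and vessel development (ENSMUSG00000050295, GRCm38 chromosome 13, 31806633 to 31812476), had 2402, 2546 and 2273 normalised counts in the 4T1 libraries, in replicate order as for every triplet here, and 14639, 10394 and 14398 in the 4TO7 libraries. All 3 4TO7 libraries lay above all 3 4T1 libraries, and 4TO7 replicate 2 was the lowest of its line. The means were 2407 ± 136 and 13144 ± 2385 (SD, n = 3 in each line, as for every mean here), a 5.46-fold higher level in 4TO7 (log2 -2.43 ± 0.16 SE, adjusted p = 8.22e-06). Foxc2, its paralog with roles in lymphatic and mesenchymal development (ENSMUSG00000046714, chromosome 8, 121116171 to 121118895), went the other way, with 1117, 1007 and 1041 in 4T1 and 0.936, 0 and 0.995 in 4TO7. Over the 3 libraries this was 3196 reads in 4T1 and 2 in 4TO7, a ratio of 1596 with an exact 95% interval of 442 to 13188 that covers counting error only. The limma difference was 9.39 ± 0.33 (adjusted p = 2.59e-07). Its size depends on the pseudocount, at 7.56 with a pseudocount of 5 and 10.0 with 0.5. Over all alternatives it ranged from 7.56 to 10.6, the latter with DESeq2.

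On a per-length scale, normalised counts per kilobase of exon with all annotated exons of a gene merged, the FOXC genes were at similar levels in 4T1, 412 for Foxc1 and 387 for Foxc2. In 4TO7 the per-length level was 2249 for Foxc1 and 0.236 for Foxc2. Foxc1 was thus the most abundant of the 43 members per length in 4TO7, 26.1% of their summed level, against 5.50% and rank 4 in 4T1. Foxa1 was left out of all ranks and shares. Foxc2 had rank 6 in 4T1. Ranks and shares on this scale depend on the length used. Foxp1, for instance, has 13751 bases of merged exon but 2121 in its transcript with the longest coding sequence. Within a 270-base window of the forkhead domain the FOXC transcripts shared 245 bases, or 90.7%, and their longest identical run was 53 bases. Only 4 of the 5795 50-base windows of Foxc1 and 4 of the 2676 of Foxc2 occur in the other gene.

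The promoter of Foxc1, the member most abundant per length in 4TO7, is shown for the 250 bases before its RefSeq start (GRCm38.p6, chr13:31806396-31806645, plus strand). Capitals mark an ATTGG, the reverse complement of the CCAAT box, and a GGGCGG.
Foxc1 promoter: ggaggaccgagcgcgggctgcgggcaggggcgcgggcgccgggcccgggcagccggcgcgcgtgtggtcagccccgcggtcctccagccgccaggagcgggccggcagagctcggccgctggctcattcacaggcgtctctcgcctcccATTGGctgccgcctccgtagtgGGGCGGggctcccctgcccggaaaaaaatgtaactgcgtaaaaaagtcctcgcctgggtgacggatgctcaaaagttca
The window holds 29 CG dinucleotides, against a median of 6 over the 32851 promoter windows of the table, and its GC content is 70.8%. Searched on both strands, CCAAT occurs in 33.8% and GGGCGG in 32.7% of those windows. TATAAA (12.4% of windows), the E-box CACGTG (6.0%) and the forkhead motif GTAAACA (3.2%) are not spelled in this window. RefSeq windows were matched for 27 of the 43 members, among them Foxc1, Foxd2 and Foxk2 of the 8 that differed.

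Foxq1, a forkhead gene studied in epithelial to mesenchymal transition (ENSMUSG00000038415, chromosome 13, 31556134 to 31560976), had 12.1, 23.9 and 23.2 normalised counts in 4T1 and 498, 405 and 568 in 4TO7. The lines were far apart in every library, with means of 19.7 ± 6.61 and 490.2 ± 82.1, 24.8-fold higher in 4TO7 (log2 -4.61 ± 0.31, adjusted p = 8.9e-06). The transcript A530084C06Rik lies on the opposite strand over Foxq1 and had 2.29 ± 1.45 in 4T1 and 53.0 ± 5.15 in 4TO7. Unlike Foxq1, A530084C06Rik passed the filter through 4TO7 alone and so had to differ. Since it is not given whether counting used strand, reads of the overlapping pair cannot be told apart.

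Foxd2, a gene of kidney and paraxial mesoderm development (ENSMUSG00000055210, chromosome 4, 114906282 to 114908873), had 11.1, 21.9 and 34.8 in 4T1 and 109, 52.4 and 149 in 4TO7. The 4TO7 libraries were all higher, though replicate 2 lay closest to 4T1, and the ratio of means was 4.58 (22.6 ± 11.8 against 103 ± 48.6, log2 -2.16 ± 0.50, adjusted p = 0.00774). Its noncoding neighbour Foxd2os did not pass, with 298, 281 and 329 in 4T1 and 432, 326 and 476 in 4TO7 (log2 -0.43 ± 0.20, adjusted p = 0.116).

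Foxf1, a gene of lung and gut mesenchyme downstream of Hedgehog signalling (ENSMUSG00000042812, chromosome 8, 121084386 to 121088144), had 555, 473 and 504 in 4T1 and 369, 218 and 320.5 in 4TO7. It was 1.69-fold higher in 4T1 (511 ± 41.2 against 302 ± 76.9, log2 0.78 ± 0.23, adjusted p = 0.0213). This was the weakest of the 8 calls, and leaving out 4T1 replicate 1 (adjusted p = 0.0734) or 4T1 replicate 3 (0.0557) ended it, in a range of 0.00665 to 0.0734 over the alternatives. Foxl1, a mesenchymal gene of the gut, overlapped fully between the lines, with 196, 136 and 199 in 4T1 and 205, 91.2 and 255 in 4TO7 (log2 0.05 ± 0.38, adjusted p = 0.926). Without 4TO7 replicate 2 the log2 difference was -0.39 and did not pass either (0.206).

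**Figure D2:**
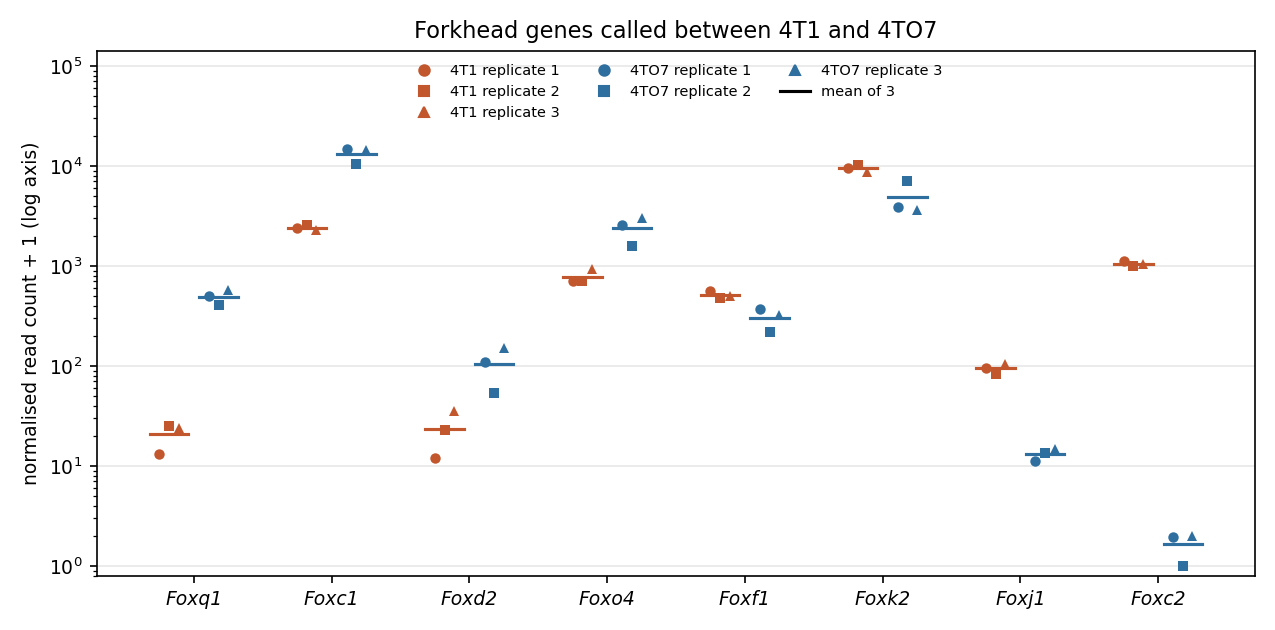
Normalised read count plus 1 on a log axis for the 8 forkhead genes that passed the test, with 1 point per library (shape gives the replicate) and a bar at the mean of 3. The lines do not overlap for any of the 8, and the square of 4TO7 replicate 2 lies nearest to 4T1 for Foxq1, Foxc1, Foxd2, Foxo4 and Foxk2.

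Several of these genes lie side by side in the genome, and neighbours differed in call and direction. On chromosome 13, Foxq1, Foxf2 and Foxc1 span 256343 bases. Foxq1 and Foxc1 were higher in 4TO7, while Foxf2 between them had 5 reads in 4T1 and 0 in 4TO7. The lncRNA Gm11379 (31797539 to 31800789, annotated type antisense) lies beside Foxc1 on the same strand and does not overlap it. Gm11379 had 0 reads in 4T1 and normalised counts of 30.9, 25.2 and 33.8 in 4TO7, at least 30.4-fold higher against a floor of 3 reads over the 4T1 libraries. It passed the filter through 4TO7 alone and so had to differ. The next protein-coding gene, Gmds, an enzyme of GDP-fucose synthesis, was 824 ± 120.1 in 4T1 and 1178 ± 72.4 in 4TO7 (log2 -0.52, adjusted p = 0.026).

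On chromosome 8, Foxf1, Foxc2 and Foxl1 lie within 46259 bases. Foxc2 had reads almost only in 4T1, yet its neighbours Mthfsd (1554 ± 210.0 in 4T1, 1382 ± 48.2 in 4TO7, adjusted p = 0.395) and Foxl1 did not pass. Fendrr, the lncRNA transcribed away from Foxf1, had 404, 383 and 338 in 4T1 and 448, 191 and 287 in 4TO7, and did not pass either (log2 0.36 ± 0.30, adjusted p = 0.349). The transcript Gm20388, which overlaps Foxf1, Foxc2 and Foxl1 on the same strand, had 0 reads assigned to it. How the counting treated reads shared by overlapping genes is not given here, so this does not show that it was silent.

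**Figure D3:**
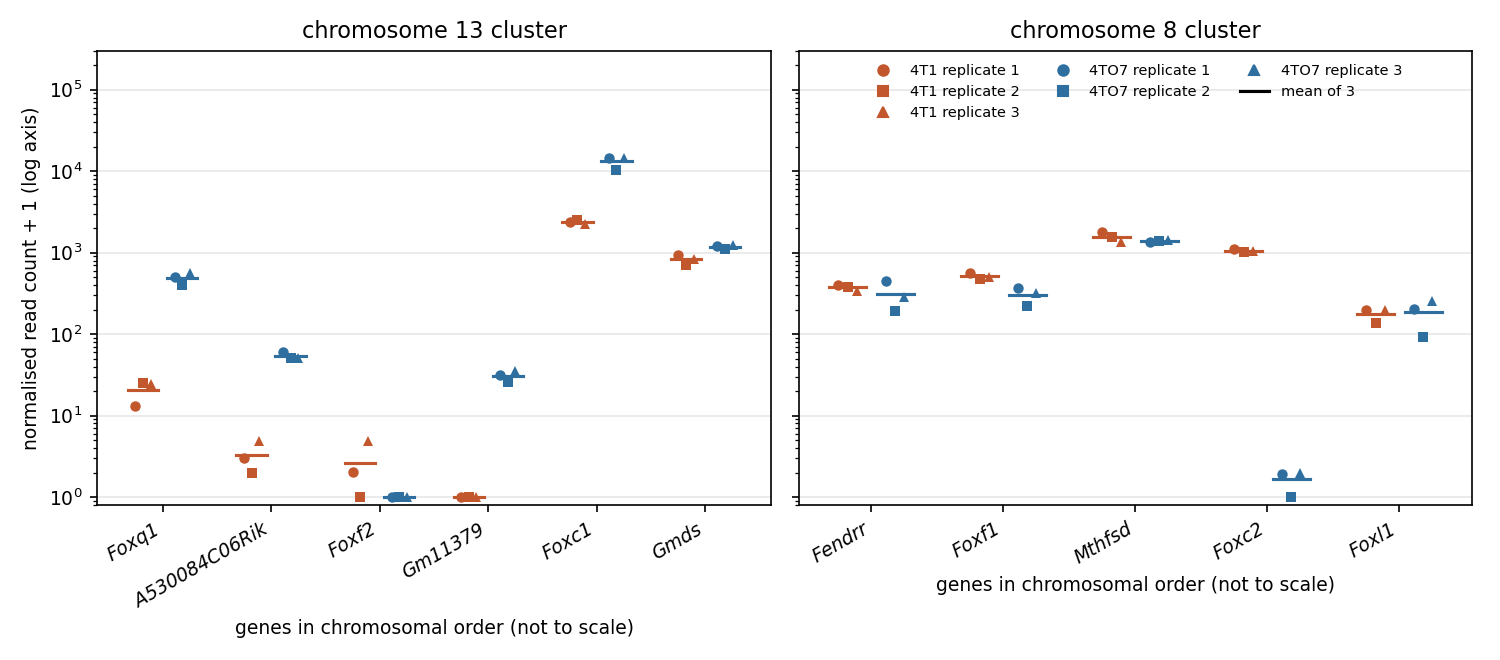
Normalised read count plus 1 on a log axis for the genes of the chromosome 13 and chromosome 8 forkhead clusters, in chromosomal order and not to scale, with 1 point per library and a bar at the mean of 3. Foxq1, A530084C06Rik, Gm11379 and Foxc1 lie higher in 4TO7, while on chromosome 8 the large separation is at Foxc2 alone. A530084C06Rik and Gm11379 passed the low-value filter through 4TO7 alone, and Foxc2 through 4T1 alone.

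Among the FOXO genes, Foxo4 was the member that differed. Foxo4 (ENSMUSG00000042903, chromosome X, 101254528 to 101260873) had 712, 702 and 933 normalised counts in 4T1 and 2556, 1586 and 3003 in 4TO7. All 4TO7 libraries were higher and replicate 2 was the lowest of them, with means of 782 ± 130.1 and 2382 ± 725, 3.04-fold higher in 4TO7 (log2 -1.57 ± 0.25, adjusted p = 0.0012). Foxo1 had 931, 1226 and 1314 in 4T1 and 2288, 824 and 1850.3 in 4TO7 (log2 -0.41 ± 0.35, adjusted p = 0.368). Only 4TO7 replicate 2 lay within or below the 4T1 range, and without it Foxo1 passed (log2 -0.85, adjusted p = 0.00494, the lowest of a range that reached 0.826 over the alternatives). Foxo3 overlapped in the same manner, with 847, 1814 and 2048 in 4T1 and 2334, 1279 and 2629.6 in 4TO7 (log2 -0.44 ± 0.38, adjusted p = 0.362). Foxo6 had 6 reads in 4T1 and 1 in 4TO7.

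Genes that act on FOXO proteins differed in both directions. Among the 32 regulators tested, 10 had higher levels in 4T1 and 5 in 4TO7, and the median log2 was 0.14. The 46.9% called in all was near the 49.0% of all genes tested. Serum and glucocorticoid kinase Sgk2 was 15.6-fold higher in 4T1 (191, 43.8 and 216 against 7.48, 9.43 and 11.9, log2 3.56 ± 0.58, adjusted p = 0.00137). The phosphoinositide phosphatase Inpp4b was 4.39-fold higher in 4T1 (543, 1386 and 1404 against 258, 271 and 229, log2 2.01 ± 0.35, adjusted p = 0.00209). The insulin receptor substrate Irs1 was 2.48-fold higher in 4T1 (log2 1.28 ± 0.21, adjusted p = 0.00157).

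Akt1 and Akt2, kinases that phosphorylate FOXO proteins, went in opposite directions. Akt1 was 1.79-fold higher in 4T1 (28780 ± 4461 against 16115 ± 1616, adjusted p = 0.00254). Akt2 was 1.36-fold higher in 4TO7 (adjusted p = 0.0204), a call that ended when 4T1 replicate 2 (0.061), 4T1 replicate 3 (0.0729) or 4TO7 replicate 1 (0.0746) was left out, in a range of 0.0041 to 0.0746. Regulators higher in 4TO7 also included Igf1r, Pik3cd and Sgk1, named after their values were seen. The split of 10 and 5 became 8 and 8 when libraries were scaled to equal totals, which moves the median of all genes by -0.13, and 8 and 7 under quantile scaling. The 5 became 3 without 4T1 replicate 1, 4TO7 replicate 1 or 4TO7 replicate 3, and 2 without 4T1 replicate 2.

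Of 32 textbook FOXO targets, 25 were tested and 4 had 0 reads. The test called 3 with higher levels in 4T1 and 5 in 4TO7, and the median log2 was -0.37, also with Trim63 at its bound. The 32% called stands against 49.0% of all genes tested. Trim63, a muscle ubiquitin ligase, had 0 reads in 4T1 and 120 in 4TO7 (20.6, 16.8 and 81.6 normalised counts), at least 40.0-fold higher against the floor of 3 reads. It passed the filter through 4TO7 alone and so had to differ. Its 4TO7 mean of 39.7 was 18.7 without 4TO7 replicate 3. Tnfsf10, the death ligand TRAIL, was 6.39-fold higher in 4TO7 (14.1, 14.9 and 11.6 against 96.4, 41.9 and 121, log2 -2.47 ± 0.41, adjusted p = 0.00156). The CDK inhibitor Cdkn1b was 1.92-fold higher in 4TO7 (3129, 3931 and 4273 against 7776, 6471 and 7565, adjusted p = 0.00153). Sod2, the mitochondrial superoxide dismutase, was 2.14-fold higher in 4T1 (3018 ± 239.9 against 1409 ± 397, adjusted p = 0.00224), as were Cited2 and Prdx3 by the same test.

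The apoptosis gene Bcl2l11 just passed (2823 ± 523 in 4T1, 4324 ± 1052 in 4TO7, adjusted p = 0.0494) and no longer did when any library other than 4TO7 replicate 2 was left out (0.0504 to 0.163), with a pseudocount of 0.5 (0.0512) or without trend and robust moderation (0.0814). The range over all alternatives was 0.00462 to 0.163. The number of targets higher in 4TO7 was 11 without 4TO7 replicate 2. It was 3 without 4T1 replicate 1, 4T1 replicate 2 or 4TO7 replicate 3. The count over all 14276 genes tested moved as well. Genes higher in 4TO7 numbered 3412 in the main fit and 3902 without 4TO7 replicate 2. Without 4T1 replicate 1, 4T1 replicate 2 or 4TO7 replicate 3 they numbered 2882, 2822 and 2526.

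Foxm1, the forkhead activator of the G2 and M phase programme, did not pass. Its 9397, 9655 and 7839.9 normalised counts in 4T1 overlapped with 6609.9, 11324 and 7474 in 4TO7 (log2 0.12 ± 0.21, adjusted p = 0.672), and the sign of the difference changed under equal totals (-0.01) and quantile scaling (-0.04). Replicate 2 was the highest 4TO7 library for Foxm1, as it was for Foxk2 and Foxn2, unlike most members. Per length of merged exons, Foxm1 had rank 2 among the 43 members in both lines, at 1558 in 4T1 and 1472 in 4TO7.

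All 24 FOXM1 targets of the list were tested, of which 5 were higher in 4T1 and 1, Cdc25c (adjusted p = 0.0415), in 4TO7, with a median log2 of 0.26. This is 25% called, against 49.0% of all genes tested. The mitotic kinase Cdk1 was 1.86-fold higher in 4T1 (log2 0.91 ± 0.17, adjusted p = 0.00263), and Birc5, or survivin, 1.68-fold (log2 0.77 ± 0.19, adjusted p = 0.00923). Ect2, a cytokinesis exchange factor, was 1.60-fold higher (log2 0.70 ± 0.24, adjusted p = 0.043) and missed the threshold with edgeR (0.0509) and when 4T1 replicate 2 or 3 or 4TO7 replicate 1 or 3 was left out (0.12 to 0.147), in a range from 0.00305. Bub1b and Cdc20 made up the 5. Cyclin B1, Ccnb1, was 5358 ± 544 in 4T1 and 4509 ± 1156 in 4TO7 (adjusted p = 0.264), and Plk1 7298 ± 851 and 5354 ± 1089 (0.0561). Without 4TO7 replicate 2, these passed at 0.0176 and 0.00559, in ranges that reached 0.581 and 0.191 over the alternatives, and the number of FOXM1 targets higher in 4T1 was 14. It was 3 without 4T1 replicate 2, 4TO7 replicate 1 or 4TO7 replicate 3. Over all genes tested, 4162 were higher in 4T1 without 4TO7 replicate 2, against 3585 in the main fit. Without 4T1 replicate 2, 4TO7 replicate 1 or 4TO7 replicate 3 the all-gene counts were 2841, 2751 and 2777. The call of Cdc25c ended whichever library was left out. The split of 5 and 1 was 4 and 2 under equal totals and 4 and 3 under quantile scaling. The proliferation marker Mki67 was 35978 ± 9349 in 4T1 and 35167 ± 5303 in 4TO7 (adjusted p = 0.98).

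Of 14 partners and cofactors of FOXM1, including the DREAM and MuvB subunits that sit with it on cell-cycle promoters, the levels of 4 were higher in 4T1 and those of 0 in 4TO7, where 2 had an unadjusted p under 0.05, edgeR called 1 and DESeq2 called 2. The share called was 28.6%, against 49.0% of all genes tested, and without 4TO7 replicate 2 the split was 6 and 1. The repressive E2F family member E2f4 was 3.46-fold higher in 4T1 (log2 1.80 ± 0.22, adjusted p = 0.000275). Mybl2, the B-MYB factor that hands cell-cycle promoters on to FOXM1, had 3963, 3363 and 2995 in 4T1 and 897, 1914 and 1198 in 4TO7, 2.57-fold higher in 4T1 (log2 1.43 ± 0.26, adjusted p = 0.0027). Tfdp1, the dimer partner of E2F proteins, was 1.87-fold higher in 4T1 (adjusted p = 0.00463), and Fzr1 (adjusted p = 0.0454) completed the 4. The 4 became 3 when any library other than 4TO7 replicate 2 was left out. It was also 3 without the low-value filter, under TMM scaling, without trend and robust moderation and with edgeR. The split of 4 and 0 was 3 and 2 under equal totals and 3 and 1 under quantile scaling.

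Foxj1, the master gene of motile cilia (ENSMUSG00000034227, chromosome 11, 116330704 to 116335399), had 94.8, 81.7 and 104 normalised counts in 4T1 and 10.3, 12.6 and 13.9 in 4TO7. Every 4T1 library was well above every 4TO7 library, and the ratio of means was 7.63 (93.6 ± 11.3 against 12.3 ± 1.84, log2 2.84 ± 0.27, adjusted p = 5.88e-05). Its relatives Foxj2 and Foxj3 did not pass. Foxj2 had 915, 956 and 1158 in 4T1 and 1015, 973 and 877 in 4TO7 (log2 0.08 ± 0.16, adjusted p = 0.712). Foxj3 had 1572, 2438 and 2291 in 4T1 and 2561, 2544 and 2621 in 4TO7, which do not overlap, although the test did not pass (log2 -0.32 ± 0.18, adjusted p = 0.176).

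Of 25 genes of the motile cilium that are expressed with Foxj1 in ciliated tissue, 11 were tested and 3 had 0 reads. The test placed 6 higher in 4TO7 (23.9% of all genes tested) and 0 higher in 4T1 with limma (25.1% of all genes, and for the list 0 at an unadjusted p under 0.05, 0 with edgeR and 0 with DESeq2). There was 1 higher in 4T1 without the low-value filter, and 1 without 4TO7 replicate 2. Among members under the filter, Rsph9 had 10 reads in 4T1 and 1 in 4TO7, and Ak7 had 15 and 6. Dnah5, an outer dynein arm heavy chain, had 1.01, 0.996 and 0.965 in 4T1 and 239.5, 262 and 363 in 4TO7. This was 3 reads against 871, a ratio of 291 with an exact 95% interval of 99.1 to 1412 (log2 -7.16 ± 0.29, adjusted p = 4.5e-07). Dnaic2, an intermediate chain of the same arm, was 57.0-fold higher in 4TO7 (5.04, 2.99 and 9.65 against 418, 140.4 and 449.9, log2 -5.56 ± 0.53, adjusted p = 6.48e-05). Ccdc39, part of the ruler that spaces axonemal arms, was 14.5-fold higher in 4TO7 (13.1, 11.0 and 16.4 against 224, 110.0 and 253, log2 -3.69 ± 0.36, adjusted p = 7.93e-05). Ccno, a cyclin of multiciliated cells, and the regulators Rfx3 and Rfx2 were also called. Dnah5, Dnaic2, Ccno and Dnah11 passed the filter through 4TO7 alone, so the count for this list describes it and supports nothing. The upstream regulator Mcidas had 8 reads in 4T1 and 27 in 4TO7 and was not tested, and Gmnc had 0 reads, as did 2 of the axonemal genes, Rsph4a and Spag6.

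Foxk2, a repressor that competes with FOXO proteins at metabolic and autophagy genes (ENSMUSG00000039275, chromosome 11, 121259990 to 121309896), had 9568, 10326 and 8717 in 4T1 and 3852, 7152 and 3618 in 4TO7. It was higher in each 4T1 library, 1.96-fold by the means (9537 ± 805 against 4874 ± 1976, log2 1.04 ± 0.25, adjusted p = 0.00936) and 2.55-fold without 4TO7 replicate 2. Per length of merged exons it had rank 1 among the 43 members in 4T1, at 1814 against 927 in 4TO7, where it had rank 4. Its lead over Foxm1, at 1558 in 4T1, depends on the length used. Merged exons and the transcript with the longest coding sequence have 5258 and 5029 bases for Foxk2, and 5754 and 4652 for Foxm1. Foxk1, the paralog of Foxk2, did not pass, with 2534, 3730.4 and 3026 in 4T1 and 3693, 3174 and 3950.4 in 4TO7 (log2 -0.23 ± 0.17, adjusted p = 0.297).

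Foxp1, a repressor with roles in lymphoid, heart and epithelial cells, had 2352, 2879.5 and 2967 in 4T1 and 5432, 2821 and 5291 in 4TO7. Replicates 1 and 3 of 4TO7 lay above all 4T1 libraries and replicate 2 among them (log2 -0.67 ± 0.25, adjusted p = 0.0569). It passed in 8 of the 17 alternatives, among them edgeR (0.0251), DESeq2 (0.0143) and leaving out 4TO7 replicate 2 (0.000565), in a range up to 0.183. Foxp4, its relative, had 5783, 5597 and 4735 in 4T1 and 4626, 4489.9 and 4860.1 in 4TO7 and did not pass (log2 0.20 ± 0.13, adjusted p = 0.234). Foxp2, known for its part in brain and lung development, had 2 and 4 reads. Foxp3, the factor of regulatory T cells, had 14 reads in each line.

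Of 17 corepressors and other partners of FOXP and FOXK proteins, all tested, 4 were higher in 4T1 and 1, Chd4, in 4TO7, with a median log2 of -0.02. Called genes made up 29.4%, against 49.0% of all genes tested. Gatad2a and Mta1, subunits of the NuRD deacetylase complex, were 2.33-fold (log2 1.25 ± 0.20, adjusted p = 0.00129) and 1.90-fold (log2 0.92 ± 0.12, adjusted p = 0.000358) higher in 4T1. Dvl1, a Wnt pathway protein carried into the nucleus by FOXK proteins, was 1.75-fold higher (log2 0.81 ± 0.13, adjusted p = 0.00147), and the deacetylase Hdac2 completed the 4. The split of 4 and 1 was 3 and 3 under equal totals, 4 and 2 under TMM scaling and 3 and 4 under quantile scaling. The call of Chd4, the NuRD helicase, was lost without 4T1 replicate 3 or 4TO7 replicate 3.

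**Figure D4:**
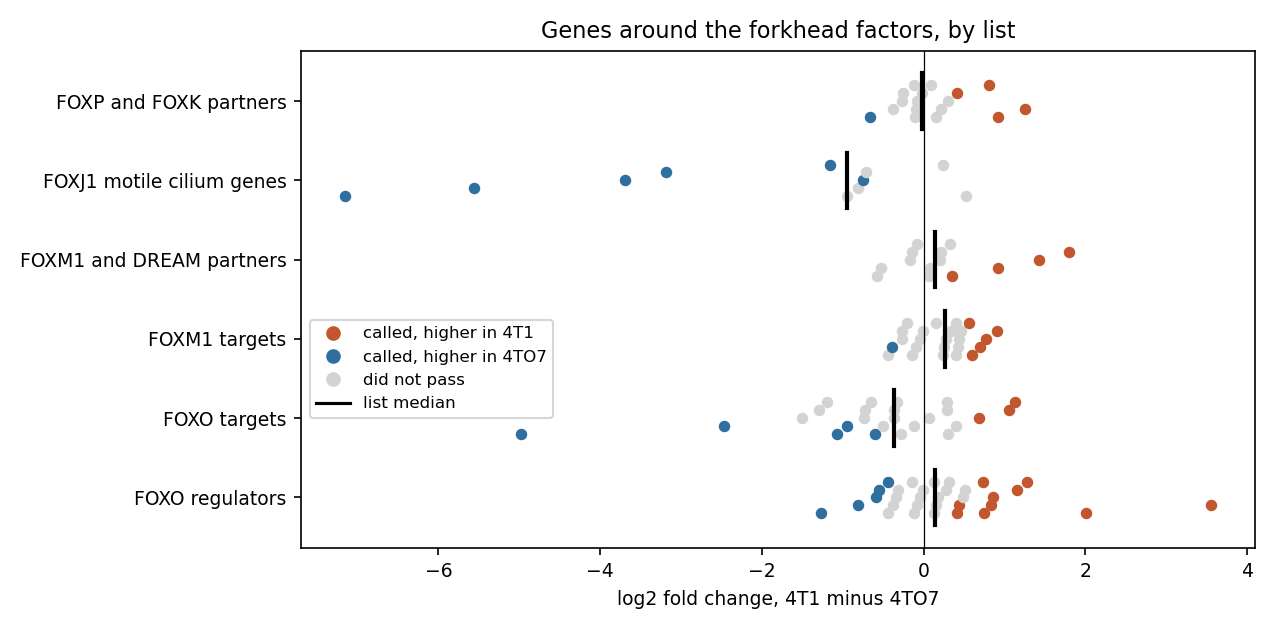
Fitted log2 difference (4T1 minus 4TO7) of each tested gene of the 6 lists of genes around the forkhead factors, coloured by call, with a black bar at the list median. The medians lie between -0.95 for motile cilium genes and 0.26 for FOXM1 targets, and the cilium points at -7.16 and -5.56 are Dnah5 and Dnaic2.

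The FOXN genes did not pass. Foxn2 had 1501, 2930.3 and 2173 in 4T1 and 1302, 2540.5 and 1441 in 4TO7 (log2 0.33 ± 0.31, adjusted p = 0.398). Foxn3, a checkpoint repressor, had 197, 583 and 691 in 4T1 and 559, 529 and 678 in 4TO7 (log2 -0.45 ± 0.43, adjusted p = 0.416), and 4T1 replicate 1 was far below the other 5 libraries. Without that library the log2 difference was 0.12. Foxn1, the thymic epithelium factor, had 19 reads in 4T1 and 3 in 4TO7, a ratio of 6.33 with an exact 95% interval of 1.86 to 33.4, and Foxn4 had 0 and 3 reads.

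Among the 9 members with few reads, Foxa3, a liver and gut pioneer factor, came closest to the filter, with 2.02, 2.99 and 2.90 normalised counts in 4T1 and 28.1, 4.19 and 19.9 in 4TO7, or 8 and 54 reads. Fitted without the low-value filter, Foxa3 (adjusted p = 0.0173), Foxh1, the SMAD partner of Nodal signalling (0 and 6 reads, 0.0189), and Foxn1 (0.0351) fell under the threshold. Foxd4 had 2 and 0 reads. The 15 members with 0 reads in every library included Foxa2, Foxb1, Foxb2, Foxd1, Foxd3, Foxe1, Foxe3, Foxi1, Foxi2, Foxi3, Foxl2, Foxr1, Foxr2 and Foxs1, factors of endoderm, thyroid, lens, ear, ovary, germ cells and other tissues. The noncoding Foxo6os and Foxl2os also had 0 reads.

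**Figure D5:**
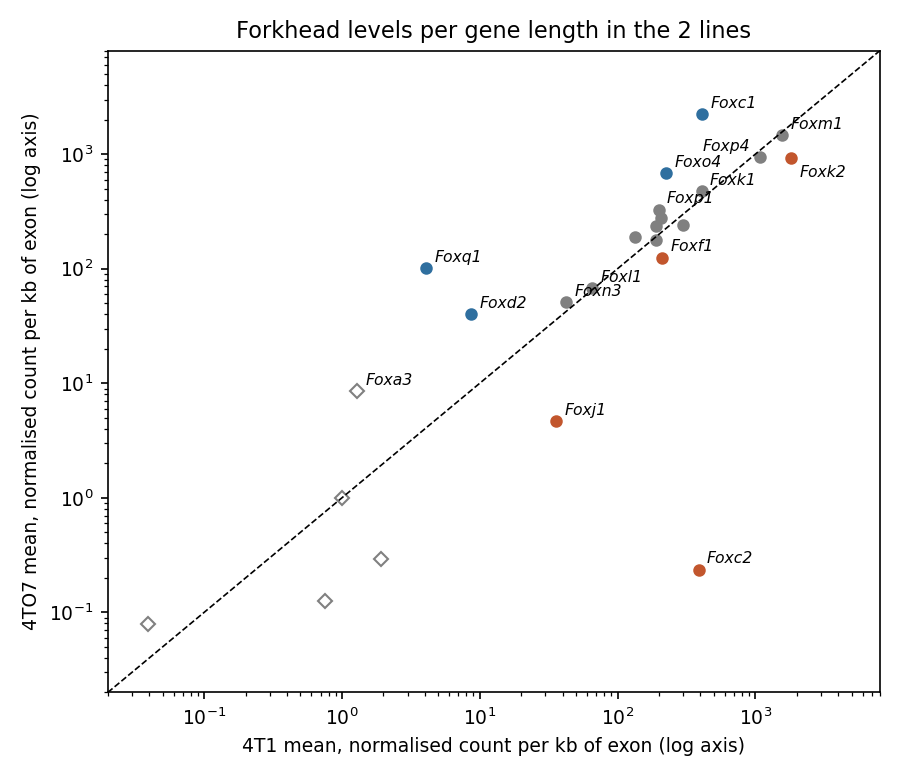
Mean normalised count per kilobase of exon in 4T1 (x axis) and 4TO7 (y axis), both on log axes, for the forkhead genes with reads in both lines, with the line of equality dashed. Orange and blue points passed the test as higher in 4T1 and in 4TO7, grey points did not pass, and open diamonds were under the low-value filter. Foxc2 lies far below the line and Foxq1, Foxd2 and Foxc1 above it, while Foxm1 and Foxp4 lie close to it near the upper end of both axes.

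A few genes held a large part of the summed per-length level of the 43 members. Foxk2, Foxm1 and Foxp4 held 24.2%, 20.8% and 14.6% of it in 4T1, and 10.8%, 17.1% and 11.0% in 4TO7. Foxc1 held 5.50% in 4T1 and 26.1% in 4TO7. All these shares rest on the merged exon length and leave out Foxa1. Foxc2 held 5.17% in 4T1 and 0.0027% in 4TO7, and Foxo4 3.00% and 7.94%. All 43 members together took 1095, 1219.7 and 1116 reads per 1000000 in 4T1 and 1556, 1431.5 and 1553 in 4TO7, and without Foxc1 1030.6, 1154 and 1056 against 1124, 1136 and 1139. The higher total of these 43 members in 4TO7 was thus mostly reads of Foxc1.

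In the authors' deposited table, which tests 4TO7 against 4T1, 25 members had an adjusted p-value, and 6 were called higher in 4TO7 and 4 higher in 4T1. The same table calls 39.1% of the 19556 genes with an adjusted p-value. Beside the 8 genes above, its calls were Foxp1 and Foxa3, with an adjusted p of 0.0104 for Foxa3 in the authors' deposited table.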

How the data were processed

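RNA-seq of total RNA from 4T1 and 4TO7 cells (3 libraries each) was analysed from 1 table. The authors deposited a normalised signal (per gene, the read count over a size factor of that library, from the headers and the values) and their own log2 fold change, test score, p-value and adjusted p-value. The submitters' processing notes name STAR 2.5, featureCounts 1.5, DESeq2 and GRCm38. Annotation release and strand setting are not given in the sources used here. Divided by the library's step, every value was whole (100% within 1e-06), so reads were recovered for intervals and for the count tests.

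The signal was tested as deposited on log2(value + 1), which understates changes of genes with few reads, with limma 3.58.1 in R 4.3.3 (trend, robust, group only, two-sided). Genes with at least 10 in at least 3 of 6 libraries were kept (14276). Folds without log2 are ratios of means. For 0 reads in a line, folds are bounds against 3 reads over its libraries. Intervals are exact at 95%, and like that floor cover counting error only. edgeR 4.0.16 and DESeq2 1.42.0 on recovered reads were among 17 alternatives.

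The members and the 6 lists (145 genes, 144 found) were chosen with earlier results of these data known, so no list count is independent support. By rule, every tested member was named, each list's 3 largest called changes, and a fixed set (including Cdkn1b, Bcl2l11, Akt1, Akt2, Ccnb1, Plk1, Mybl2, Mcidas and Mki67), with noncoding forkhead neighbours. Other genes were named after their values were seen, and a few genes under the rule are not reported here. Sequences came from GENCODE M21 transcripts and RefSeq promoters (GRCm38.p6), and exon lengths from GENCODE M21, with all annotated exons of a gene merged.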

Additional observations from a re-analysis of the deposited data

How the results depend on the processing

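Of 323 values of the 19 tested forkhead genes under 17 alternatives, 300 kept their direction and their side of the threshold, 2 fell behind it (Foxf1), 9 came past it and 12 changed sign, all 12 of genes that had not passed. Without the low-value filter 7 forkhead genes were higher in 4TO7, and 0 FOXM1 targets were higher in 4TO7 and 1 cilium gene in 4T1. With a minimum of 50, 3 FOXO targets were higher in 4TO7. Under equal totals the counts higher in 4TO7 were 8 FOXO regulators, 2 FOXM1 targets, 2 FOXM1 partners and 3 FOXP and FOXK partners. Under quantile scaling they were 3 FOXM1 targets, 1 FOXM1 partner and 4 FOXP and FOXK partners, and under TMM 2 FOXP and FOXK partners. Without trend and robust moderation 0 FOXM1 targets were higher in 4TO7. With edgeR, 8 FOXO targets and 1 FOXM1 partner were higher in 4TO7, and with DESeq2 2 FOXM1 partners and 2 FOXP and FOXK partners. All-gene counts higher in 4T1 and in 4TO7 were 3585 and 3412 in the main fit. They were 2968 and 4060 under equal totals, 3279 and 3741 under quantile scaling, and 3367 and 3615 under TMM. With edgeR they were 3336 and 3638, with DESeq2 3641 and 3665, and without trend and robust moderation 3352 and 3244. Without the low-value filter they were 3894 and 4004 of 25124 genes, and with a minimum of 50, 3161 and 2812 of 11863. The cause of the shifts in the list counts was not tested.

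Leaving out 1 library, the counts higher in 4T1 and in 4TO7 ranged over 3 to 4 and 4 to 6 for forkhead genes. They were 8 to 12 and 2 to 4 for FOXO regulators, and 3 to 3 and 3 to 11 for FOXO targets. FOXM1 targets had 3 to 14 and 0 to 0, and FOXM1 partners 3 to 6 and 0 to 1. Cilium genes had 0 to 1 and 5 to 7, and FOXP and FOXK partners 3 to 4 and 0 to 1. Over all genes tested the counts ranged over 2751 to 4162 and 2491 to 3902.

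The changes of sign (log2) were as follows. Under equal totals Foxj2 was -0.053, Foxm1 -0.013, Foxl1 -0.079 and Mki67 -0.12. Under quantile scaling Foxm1 was -0.036 and Mki67 -0.18, with TMM Mki67 was -0.030, with edgeR Foxl1 was -0.088 and Mki67 -0.0083, and with DESeq2 Foxl1 was -0.076. Leaving out 1 library, Foxn3 ranged from -0.79 to 0.12 (without 4T1 replicate 1), Foxj2 from -0.027 to 0.14, Foxm1 from -0.043 to 0.34, Foxl1 from -0.39 (without 4TO7 replicate 2) to 0.35 and Mki67 from -0.12 to 0.25.

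The libraries of the lines share replicate numbers, but deviations of same-numbered libraries correlated at -0.01, 0.27 and 0.33, and not every library correlated best with its own number, so pairing was not established. With the replicate number as a block, 7750 instead of 6997 genes were called, with 10 FOXO targets higher in 4TO7, 9 FOXM1 targets higher in 4T1, and 2 FOXM1 targets, 2 FOXM1 partners and 2 FOXP and FOXK partners higher in 4TO7.

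With 3 libraries per line, the call of Foxf1 ended when either of 2 libraries was left out. Foxo1, not called, passed only without 4TO7 replicate 2, and Foxp1, not called, passed in 8 of 17 alternatives, of which 1 left out a library. For members with few reads, depth allows no more than their counting intervals state, and transcripts on opposite strands could not be separated.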
